A study of Arabidopsis thaliana with 10 samples.

Results

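The genes described here had low transcript levels in Arabidopsis thaliana seedlings of the line DIF-OX2 grown on dexamethasone (Dex), here called induced DIF-OX2. They were also low in the mutant dal-2, and were chosen by these same values. A gene was taken where its highest level in the 4 libraries of induced DIF-OX2 and dal-2, multiplied by 4, did not exceed its lowest level in the 6 libraries of DIF-OX2 without Dex, Col-0 on Dex and Col-0, and where that lowest level was 4 CPM or more. CPM is the count of a gene divided by the sum of its library and multiplied by 1000000. Of the 33602 genes in the count table, 15049 had a lowest level of 4 CPM or more in those 6 libraries and 15 met the whole rule. FBA5 and PGL5, enzymes of sugar metabolism, were left aside, which gives 13 genes. All 13 had enough counts to be tested. Transcripts remained in induced DIF-OX2, where only 2 of the 13 were under 1 CPM in both libraries, against 9 in dal-2. The depth of these low levels against the 6 libraries is what selected the genes, so it is given as a description without a test.

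RNA was sequenced from whole seedlings with 4 open true leaves in 10 libraries, 2 for each of 5 groups. DIF-OX2 with 10 µM Dex was harvested at 12 days and dal-2, without Dex, at 20 days (replicate 1) and 21 days (replicate 2). DIF-OX2 without Dex, wild-type Col-0 with 10 µM Dex and Col-0 without Dex were harvested at 12 days. All plants were of the Col-0 background and grew on sugar-containing medium with 0.1% ethanol, the solvent of Dex. Genotype and age cannot be told apart in dal-2. Dex is a synthetic glucocorticoid that serves as the inducer of DIF in DIF-OX2; the promoter of the transgene, the number of independent lines and the locus of DIF are not stated in the sources, so induction is taken from the design. Nothing in the labels says that replicates were separate cultures, so p-values measure only the spread between these libraries, which may be technical.

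Libraries held 8805568 to 16556322 counts. DAL (AT2G33430), the gene mutated in dal-2, stood at 38.3 and 43.2 CPM in dal-2 and at 76.5 and 66.1 CPM in induced DIF-OX2. In the 6 other libraries it had 83.4 to 102 CPM, above both of these groups. The dal-2 replicates were the least alike, with an SD of log2 replicate differences of 0.745, against 0.355 to 0.439 elsewhere. Markers of several seedling tissues were detected in every library, among them 5 CASP genes of the root endodermis with a summed level of 31.2 to 67.6 CPM.

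By the study's title, DIF belongs to an SCF complex, a type of ubiquitin ligase that marks chosen proteins for degradation, and DAL is its target. DAL, also known as MORF2, is one of the MORF proteins, which take part in RNA editing in plastids and mitochondria. Plastids report their state to the nucleus, a traffic called retrograde signalling, and nuclear genes for photosynthesis are the best known genes under its control. The 13 genes encode none of the light-harvesting or chlorophyll proteins that usually serve as its reporters, and none of them is in the lists of greening regulators and antenna genes described further on.

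By the roles that the annotation gives, 1 gene encodes a thionin, a small cysteine-rich peptide of plant defence (AT1G66100). Enzymes were represented by AT5G33370, a GDSL lipase known as CUTIN SYNTHASE 2, which builds the cutin of the plant surface. AT2G29300 encodes a short-chain dehydrogenase of the Rossmann-fold type, and AT1G14250 a GDA1/CD39 phosphatase, a class that removes phosphate from nucleotides. GLC (GLAUCE, AT1G65450) encodes an HXXXD-type acyltransferase known for its need in double fertilization. Regulators and signalling genes were MYB47 (AT1G18710), a transcription factor, DOT3 (AT5G10250), an NPH3-family protein known from leaf vein patterning, AT3G46370, a leucine-rich repeat kinase, and AT3G28220, a TRAF-like protein. AT1G13650, AT4G13572 and AT4G13575 encode proteins without a named function, and AT5G35777 is annotated as a pseudogene.

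The genes lie on all 5 nuclear chromosomes in the TAIR10.1 annotation of RefSeq: 5 on chromosome 1, 1 on chromosome 2, 2 on chromosome 3, 2 on chromosome 4 and 3 on chromosome 5. Only AT4G13572 and AT4G13575 lie close together, 1500 bases apart at chr4:7887440-7888748 (plus strand) and chr4:7890249-7893761 (minus strand), with the non-coding RNA genes AT4G06115 and AT4G06120, not analysed here, between them. The stretch of 150 bases before the annotated start is shown for this pair, since it is the one place where 2 of the genes are close together, and for AT3G28220, DOT3 and AT1G13650, which hold several of the motifs searched. Each is written 5′ to 3′ on the strand of its gene, from RefSeq's TAIR10.1 genome, with motif matches in capitals.
AT4G13575, chr4:7893762-7893911, minus strand: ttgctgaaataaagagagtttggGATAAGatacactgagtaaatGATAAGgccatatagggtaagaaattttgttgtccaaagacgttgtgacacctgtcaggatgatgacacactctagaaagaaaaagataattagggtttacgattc
AT4G13572, chr4:7887290-7887439, plus strand: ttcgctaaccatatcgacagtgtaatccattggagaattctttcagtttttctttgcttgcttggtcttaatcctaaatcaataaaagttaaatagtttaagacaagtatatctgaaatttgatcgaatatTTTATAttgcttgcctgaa
AT3G28220, chr3:10524031-10524180, plus strand: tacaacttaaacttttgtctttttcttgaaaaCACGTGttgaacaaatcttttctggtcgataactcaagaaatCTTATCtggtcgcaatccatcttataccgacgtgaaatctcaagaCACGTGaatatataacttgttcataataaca
DOT3, chr5:3219437-3219586, minus strand: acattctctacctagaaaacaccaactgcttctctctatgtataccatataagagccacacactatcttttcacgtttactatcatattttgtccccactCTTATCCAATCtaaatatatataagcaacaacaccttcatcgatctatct
AT1G13650, chr1:4682383-4682532, minus strand: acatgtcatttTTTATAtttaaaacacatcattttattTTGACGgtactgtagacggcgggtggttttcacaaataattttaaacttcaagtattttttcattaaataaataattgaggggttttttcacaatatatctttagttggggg

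In the AT4G13575 stretch the capitals mark the I-box (GATAAG), found 127 and 106 bases before the start, and in AT4G13572 they mark the TATA box (TATAAA) on the other strand. AT3G28220 carries the G-box (CACGTG) 118 and 31 bases before the start and the I-box on the other strand at 76 bases. In DOT3 the capitals mark the I-box on the other strand, which shares 1 base with the CCAAT-type box (CCAATC) next to it. AT1G13650 carries the TATA box on the other strand and the W-box core (TTGAC), which overlaps the TGA core (TGACG).

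Over 250 bases before the start and on both strands, the I-box was found in 5 of the 13 genes (38.5%) and in 12.3% of the windows of 27443 protein-coding nuclear genes. The 5 genes were AT2G29300, AT3G28220, AT4G13575, DOT3 and AT5G35777, the last a pseudogene and so of a class not among the 27443. The W-box core was found in 30.8% of the 13 and 44.9% of all, the TATA box in 30.8% and 47.3%, the TGA core in 15.4% and 18.6%, and the CCAAT-type box in 15.4% and 10.2%. The G-box and the evening element (AAAATATCT) were each found in 1 of the 13 (7.69%), in AT3G28220 and AT4G13572, against 6.49% and 2.36% of all windows. AAAAATCT, the CCA1-binding site, was in 0 of the 13 windows and in 6.69% of all. These matches describe the sequence only, and 2 of the 13 windows, those of AT2G29300 and DOT3, reach into a neighbouring gene.

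The thionin AT1G66100 was the most abundant of the 13 genes. It had 46.0 and 29.5 CPM in induced DIF-OX2 and 0.177 and 0.940 CPM in dal-2, against 355 and 357 CPM in DIF-OX2, 334 and 279 CPM in Col-0 on Dex and 348 and 339 CPM in Col-0, replicate 1 before replicate 2 here and in what follows. The 2 low groups were separate from the 6 other libraries and from each other, dal-2 being the lower. In whole seedlings, fewer cells of a type and less RNA per cell cannot be told apart. A miRNA gene on the same strand, MIR5014b, is annotated within AT1G66100, and reads of both could not be separated from gene counts.

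Of the enzymes, AT2G29300 had 7.72 and 6.98 CPM in induced DIF-OX2 and 1.77 and 7.05 CPM in dal-2, against 53.8 and 71.6 CPM in DIF-OX2, 51.7 and 60.5 CPM in Col-0 on Dex and 52.2 and 69.0 CPM in Col-0. The GDSL lipase AT5G33370 had 3.97 and 2.37 CPM in induced DIF-OX2 and 1.41 and 0.739 CPM in dal-2, against 20.5 and 19.5 CPM in DIF-OX2, 29.0 and 24.8 CPM in Col-0 on Dex and 26.7 and 26.4 CPM in Col-0. The groups on the low side overlapped for AT2G29300, through dal-2 replicate 2, and were separate for AT5G33370.

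AT1G14250 had 2.16 and 3.72 CPM in induced DIF-OX2 and 0 and 0.134 CPM in dal-2, against 17.3 and 15.2 CPM in DIF-OX2, 32.2 and 27.6 CPM in Col-0 on Dex and 25.2 and 24.5 CPM in Col-0. GLC had 2.04 and 1.35 CPM in induced DIF-OX2 and 0.619 and 0.0671 CPM in dal-2, against 9.84 and 8.47 CPM in DIF-OX2, 10.0 and 12.4 CPM in Col-0 on Dex and 12.8 and 9.94 CPM in Col-0. In both genes each dal-2 library was below each library of induced DIF-OX2. AT1G14250 was also lower in both libraries of DIF-OX2 than in the 4 of Col-0, with or without Dex.

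Among the regulators, AT3G28220 had 9.88 and 4.47 CPM in induced DIF-OX2 and 0.353 and 7.25 CPM in dal-2, against 54.9 and 49.7 CPM in DIF-OX2, 70.4 and 47.2 CPM in Col-0 on Dex and 70.8 and 62.4 CPM in Col-0. DOT3 had 4.77 and 2.71 CPM in induced DIF-OX2 and 0.972 and 4.83 CPM in dal-2, against 20.2 and 22.8 CPM in DIF-OX2, 20.8 and 20.5 CPM in Col-0 on Dex and 19.7 and 25.8 CPM in Col-0. The 2 dal-2 replicates stood on either side of the libraries of induced DIF-OX2 for DOT3, and dal-2 replicate 2 stood between them for AT3G28220.

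AT3G46370 had 1.59 and 1.63 CPM in induced DIF-OX2 and 0.353 and 0.403 CPM in dal-2, against 8.20 and 12.2 CPM in DIF-OX2, 16.6 and 17.1 CPM in Col-0 on Dex and 9.92 and 12.5 CPM in Col-0. MYB47 had 0.909 and 0.271 CPM in induced DIF-OX2 and 0.0884 and 0.0671 CPM in dal-2, against 8.77 and 4.24 CPM in DIF-OX2, 8.70 and 4.17 CPM in Col-0 on Dex and 12.7 and 8.60 CPM in Col-0. MYB47 was the most variable gene within the 6 high libraries, where its highest value was 3.04 times its lowest, against 1.198 times for AT4G13572, the steadiest. Both genes were lower in each dal-2 library than in each library of induced DIF-OX2.

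AT1G13650, a gene of unknown function, was the second most abundant, with 17.1 and 6.43 CPM in induced DIF-OX2 and 0.0884 and 0.269 CPM in dal-2, against 202 and 148 CPM in DIF-OX2, 165 and 111 CPM in Col-0 on Dex and 140 and 122 CPM in Col-0. AT4G13575 had 4.202 and 2.23 CPM in induced DIF-OX2 and 0.0884 and 0 CPM in dal-2, against 25.5 and 27.9 CPM in DIF-OX2, 32.9 and 25.2 CPM in Col-0 on Dex and 25.3 and 33.4 CPM in Col-0. Both genes were separate in all pairs of low and high groups, and dal-2 was again below induced DIF-OX2.

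AT4G13572, the neighbour of AT4G13575, had 1.70 and 1.29 CPM in induced DIF-OX2 and 0.0884 and 0.134 CPM in dal-2, against 9.76 and 8.47 CPM in DIF-OX2, 9.49 and 8.46 CPM in Col-0 on Dex and 9.71 and 10.1 CPM in Col-0. The pseudogene AT5G35777 had 0.454 and 0.203 CPM in induced DIF-OX2 and 0 and 0.403 CPM in dal-2, against 8.98 and 11.7 CPM in DIF-OX2, 7.11 and 8.46 CPM in Col-0 on Dex and 6.54 and 12.1 CPM in Col-0. It had the widest gap of the 13, its lowest high library being 14.4 times its highest low library. For AT4G13572 dal-2 was below induced DIF-OX2, while the low groups overlapped for AT5G35777.

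**Figure D1:**
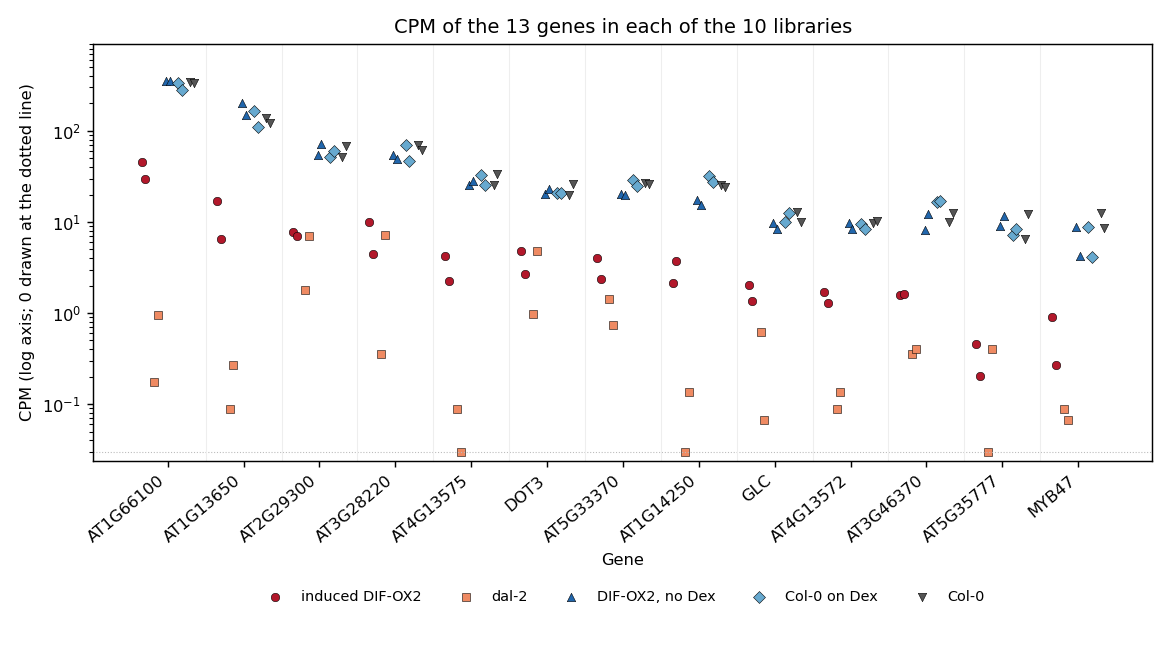
CPM on a log axis of each of the 13 genes in each of the 10 libraries, with 1 point per library and a symbol per group, in falling order of the lowest level in DIF-OX2 without Dex, Col-0 on Dex and Col-0. A gap lies between the 4 low and the 6 high points of each gene because the genes were chosen for it; the dal-2 points lie below the points of induced DIF-OX2 for 9 genes and overlap with them for 4.

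Per kilobase of exon, the mean level over the 6 high libraries was 338 CPM for AT1G66100, 73.5 for AT1G13650, 49.8 for AT2G29300, 37.3 for AT3G28220, 15.6 for AT5G33370, 14.0 for AT4G13572, 12.1 for AT1G14250, 10.4 for DOT3 and 9.26 for AT4G13575. It was 6.15 for MYB47, 4.53 for AT3G46370, 3.14 for GLC and 2.001 for AT5G35777. The thionin thus stood apart at the top, and the order below AT5G33370 runs in small steps.

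In the fit, which scales libraries by TMM, the 13 genes had a median log2 fold change of −3.38 (range −4.92 to −2.77) in induced DIF-OX2 against Col-0 on Dex, and of −5.77 (range −9.80 to −3.36) in dal-2 against Col-0. Over all 20681 tested genes these medians were 0.01 and 0.03. TMM factors were 1.06 to 1.296 in the low libraries and 0.887 to 0.927 in the high ones, so the gap is wider after this scaling than in CPM. In induced DIF-OX2 against Col-0 on Dex, 10.4% of all tested genes were called lower and 11.6% higher, and in dal-2 against Col-0 18.0% were called lower and 15.9% higher. That last balance turned with upper quartile scaling, which called 3140 genes lower and 4564 higher in dal-2, against 3731 and 3280 with TMM. A gene was called at a Benjamini-Hochberg adjusted p under 0.05.

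The genes nearest to each threshold of the rule are named on either side. Just inside the ratio stood DOT3, AT1G14250 and GLC, with a lowest high level of 4.08, 4.09 and 4.15 times the highest low one. Just outside it stood AT5G22390, AT3G62070 and CYP86A7 with 3.90, 3.82 and 3.77 times. CYP86A7 belongs to a family of cytochromes P450 that hydroxylate fatty acids. Just inside the minimum stood MYB47, AT5G35777 and AT3G46370, with lowest high levels of 4.17, 6.54 and 8.20 CPM. Just outside it stood AT3G21460, HTA4 and AT2G16367, with 3.15, 2.67 and 2.59 CPM.

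dal-2 was compared with induced DIF-OX2 to see how far the 13 genes differed between the groups in which they were low. The rule did not set these groups against each other, but it capped the highest of their libraries and gave them no lower bound. The number of the 13 genes called here is therefore not independent of how they were chosen. Of the 13 genes, 8 were lower in dal-2, 0 were higher and 5 did not pass (edgeR quasi-likelihood test, Benjamini-Hochberg adjusted over all tested genes). Over all tested genes 12.8% were called lower and 8.71% higher in this contrast (2653 and 1802 genes). With upper quartile scaling these counts were 2150 and 2426, more genes being higher than lower, while 8 of the 13 were again called lower. The median log2 fold change was −2.57 for the 13 genes and −0.02 for all tested genes. In CPM each dal-2 library was below each library of induced DIF-OX2 for 9 of the 13 genes, and for 20.0% of all tested genes. The group that was called held the thionin, the kinase, the acyltransferase, the lipase, the phosphatase and the 3 genes of unknown function.

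Of the 8 called genes, 5 had more than 3 counts over both dal-2 libraries. Among these 5, AT1G66100 had the largest difference, a log2 fold change of −6.15 in dal-2 against induced DIF-OX2 (SE 0.48; adjusted p = 2.20e-04, edgeR), and AT1G13650 was next with −6.05 (SE 0.73; adjusted p = 0.00133, edgeR). AT3G46370 differed by −2.24 (SE 0.40; adjusted p = 0.00645), GLC by −2.57 (SE 0.63; adjusted p = 0.0223) and AT5G33370 by −1.75 (SE 0.34; adjusted p = 0.0101). The call of GLC ended without replicate 1 or replicate 2 of induced DIF-OX2 (adjusted p = 0.0989 and 0.0533, edgeR). When only the 4 libraries of the contrast were fitted, so that dal-2 no longer shared the spread of the tighter groups, GLC, AT5G33370 and AT3G46370 were not called (adjusted p = 0.156, 0.128 and 0.0628, edgeR), while the other 5 were.

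The remaining called genes had 1 to 3 counts over both dal-2 libraries, so their fitted fold changes depend on the prior count and their ratios are given from counts. AT4G13575 had 1 count in dal-2 and 70 in induced DIF-OX2, a ratio of library-scaled counts of 0.0128 (95% interval 3.21e-04 to 0.0740; adjusted p = 0.00146, edgeR). AT1G14250 had 2 and 74 counts, a ratio of 0.0243 (interval 0.00289 to 0.0910; adjusted p = 6.97e-04, edgeR). AT4G13572 had 3 and 34 counts, a ratio of 0.0794 (interval 0.0156 to 0.252; adjusted p = 8.67e-04, edgeR). These intervals cover counting error only. At the depth of dal-2, transcripts of these 3 genes were at the limit of detection.

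For 5 genes a difference between dal-2 and induced DIF-OX2 did not pass. The log2 fold changes were −0.45 (SE 0.60) for DOT3, −0.58 (SE 1.14) for AT5G35777, −0.87 (SE 0.51) for AT2G29300 and −0.99 (SE 0.83) for AT3G28220, with adjusted p of 0.625, 0.739, 0.254 and 0.427 by edgeR. MYB47 had 2 counts in dal-2 and 12 in induced DIF-OX2, a ratio of 0.150 (95% interval 0.0163 to 0.673; adjusted p = 0.141, edgeR).

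**Figure D2:**
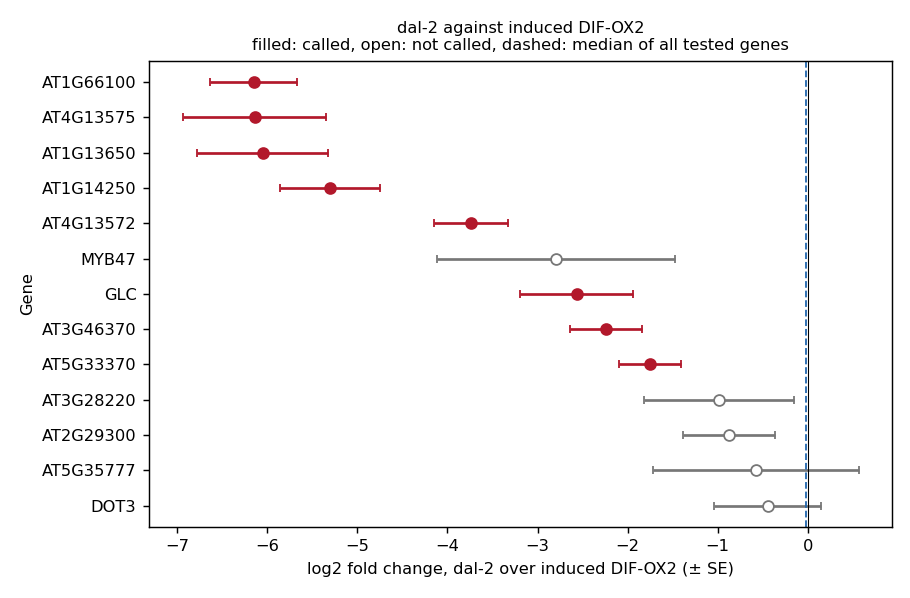
Log2 fold change of each of the 13 genes in dal-2 over induced DIF-OX2 with its SE from the edgeR fit of all 10 libraries, filled where called at an adjusted p under 0.05. The 8 filled points lie between −6.15 and −1.75, the 5 open ones between −2.79 and −0.45, and the dashed line marks the median of all tested genes, −0.02.

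Replicates within the low groups did not spread alike. In induced DIF-OX2 11 of the 13 genes were higher in replicate 1 than in replicate 2, and in dal-2 9 of the 13 were higher in replicate 2, the library of 21 days. Shares over all tested genes were not computed. Of the 9, AT1G14250 had 0 and 2 counts in dal-2, AT4G13572 1 and 2, AT1G13650 1 and 4, and AT5G35777 0 and 6. The ratio of replicate 2 to replicate 1 in dal-2 was 20.5 for AT3G28220, 5.32 for AT1G66100, 4.97 for DOT3 and 3.99 for AT2G29300. It was below 1 for AT5G33370 (0.522), GLC (0.109) and MYB47 (0.760), the last with 1 count in each replicate, and AT4G13575 had 1 count in replicate 1 and 0 in replicate 2. Genes of the circadian clock also differed between these 2 libraries: ELF4 had 117 and 0.336 CPM and PRR5 111 and 2.35 CPM in dal-2 replicates 1 and 2. Whether that difference bears on the 13 genes was not tested.

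**Figure D3:**
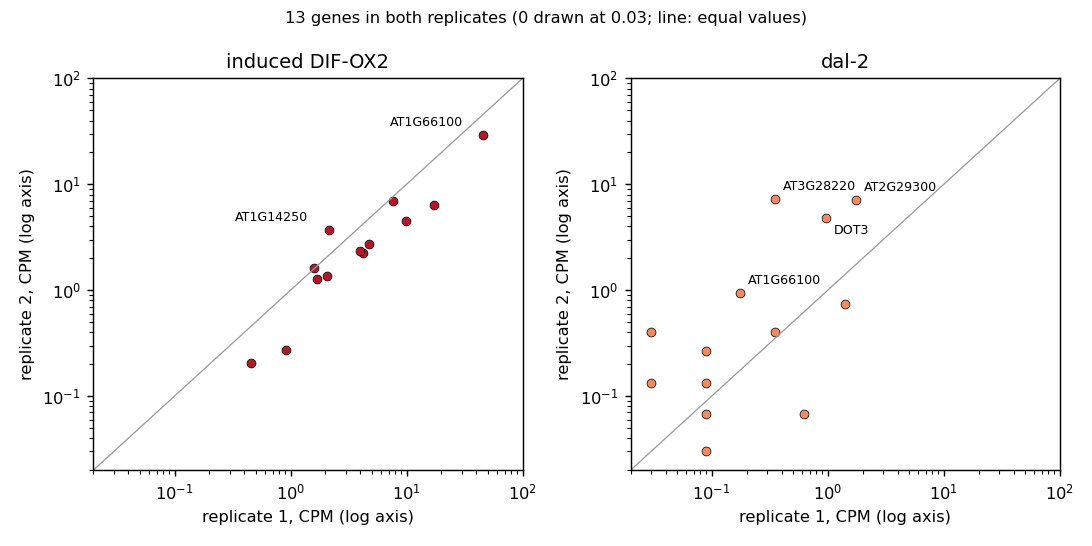
CPM of the 13 genes in replicate 2 against replicate 1, on log axes, for induced DIF-OX2 at the left and dal-2 at the right, with 1 point per gene and a line of equal values. In induced DIF-OX2 11 points lie below the line; in dal-2 9 lie above it, AT3G28220 the farthest at 0.353 and 7.25 CPM.

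Col-0 on Dex was compared with Col-0 to see whether Dex alone moved the genes. The rule asked for a high level in all of these libraries, so a gene brought down to the low level by Dex alone could not be among the 13. How many of the 13 were called lower is thus not independent of how they were chosen. None of the 13 genes was called in either direction. Over all tested genes 0 (0.0%) were called by edgeR and 0 by DESeq2, and 566 had an unadjusted p under 0.05 by edgeR. The median log2 fold change was −0.12 for the 13 genes, with a range of −0.75 (MYB47) to 0.58 (AT3G46370). AT3G46370 was the only one of the 13 with an unadjusted p under 0.05 in edgeR, and its adjusted p was 1 (SE 0.22). It had 16.6 and 17.1 CPM in Col-0 on Dex and 9.92 and 12.5 CPM in Col-0, both libraries on Dex being higher.

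DIF-OX2 without Dex was compared with Col-0 to see whether the transgenic line differed before induction. Here too the rule asked for a high level in all of the libraries compared, so a strong fall before induction was shut out by the choice of genes. None of the 13 genes was called by edgeR or by DESeq2, and 1 had an unadjusted p under 0.05. Over all tested genes edgeR called 2 (0.00967%) and DESeq2 6, and 262 had an unadjusted p under 0.05. The median log2 fold change of the 13 genes was −0.13, with a range of −0.70 (MYB47) to 0.43 (AT1G13650). The gene with the unadjusted p under 0.05 was AT1G14250, whose log2 fold change was −0.60 (SE 0.23; adjusted p = 1, edgeR). It had 17.3 and 15.2 CPM in DIF-OX2 and 25.2 and 24.5 CPM in Col-0.

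The neighbours of AT4G13572 and AT4G13575 were looked at after their values had been seen, so no test is given for them. HTA4 (AT4G13570), which encodes a histone H2A, had 0.341 and 0.542 CPM in induced DIF-OX2 and 0 counts in both dal-2 libraries, against 2.67 to 4.40 CPM in the 6 others. UNE15 (AT4G13560), a gene for a late embryogenesis abundant protein, had 0.114 and 0.135 CPM in induced DIF-OX2 and 0 counts in dal-2, against 1.18 to 2.15 CPM in the 6 others. Both genes were thus low in the same 4 libraries as their neighbours, at levels under the rule's minimum.

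The miRNA gene MIR841a (AT4G13564) lies within HTA4 on the opposite strand, and without a stated strand setting reads of the pair cannot be told apart. It had 1 count in induced DIF-OX2 and 0 in dal-2, against 29 over the 6 other libraries. Together UNE15, MIR841a, HTA4, AT4G13572 and AT4G13575 follow one another in the table and span 14204 bases, chr4:7879558-7893761. On either side, the nearest genes of the table with more than 1 CPM in every library overlapped between the low and the high libraries. AT4G13550, a putative triglyceride lipase on one side, had 49.3 and 47.6 CPM in induced DIF-OX2 and 26.1 and 43.0 CPM in dal-2, against 43.9 to 50.9 CPM in the 6 others. For AT4G13550 only induced DIF-OX2 thus overlapped with the 6 others, and both dal-2 libraries were below them. AT4G13580, a dirigent-like gene on the other side, had 11.5 and 17.2 CPM in induced DIF-OX2 and 14.1 and 9.06 CPM in dal-2, against 12.3 to 17.8 CPM in the 6 others. The gene after it, AT4G13590, was lower in all of the low libraries without meeting the ratio of the rule. It had 72.6 and 61.4 CPM in induced DIF-OX2 and 45.6 and 49.5 CPM in dal-2, against 75.8 to 86.1 CPM in the 6 others. Directly before or after the 13 genes, the table lists 26 neighbours, 16 of them with 1 CPM or more in each of the 6 high libraries. Of these 16, 3 met the ratio of the rule (HTA4, AT4G13572 and AT4G13575). AT4G13572 and AT4G13575 are themselves among the 13 genes and each other's neighbour, so the rule fixed this for them and HTA4 alone remains. Of the 16, 1 was lower in all of the low libraries without meeting the ratio (AT2G29290), 8 overlapped, and 4 were higher in all of the low libraries (AT1G14240, AT1G18700, AT1G18720 and GTB1). The neighbours were compared in CPM without TMM scaling, which brings the low libraries down against the high ones. How many would still be higher after that scaling was not computed. These shares were not computed over all genes.

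Parts of the chromosome 4 pair recur in the genome, which limits how firmly reads can be placed. Of all 50-base words of exon sequence, 7.19% of those of AT4G13575, 3.095% of those of AT4G13572 and 3.49% of those of AT1G14250 occur elsewhere in TAIR10.1. The share was 0.12% for GLC and 0 for the other 9 genes. The counting of reads with several alignments is not stated in the sources. The miRNA gene MIR3932b lies within AT4G13575, and the pseudogene AT5G33365 within AT5G33370, each on the strand of its host.

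**Figure D4:**
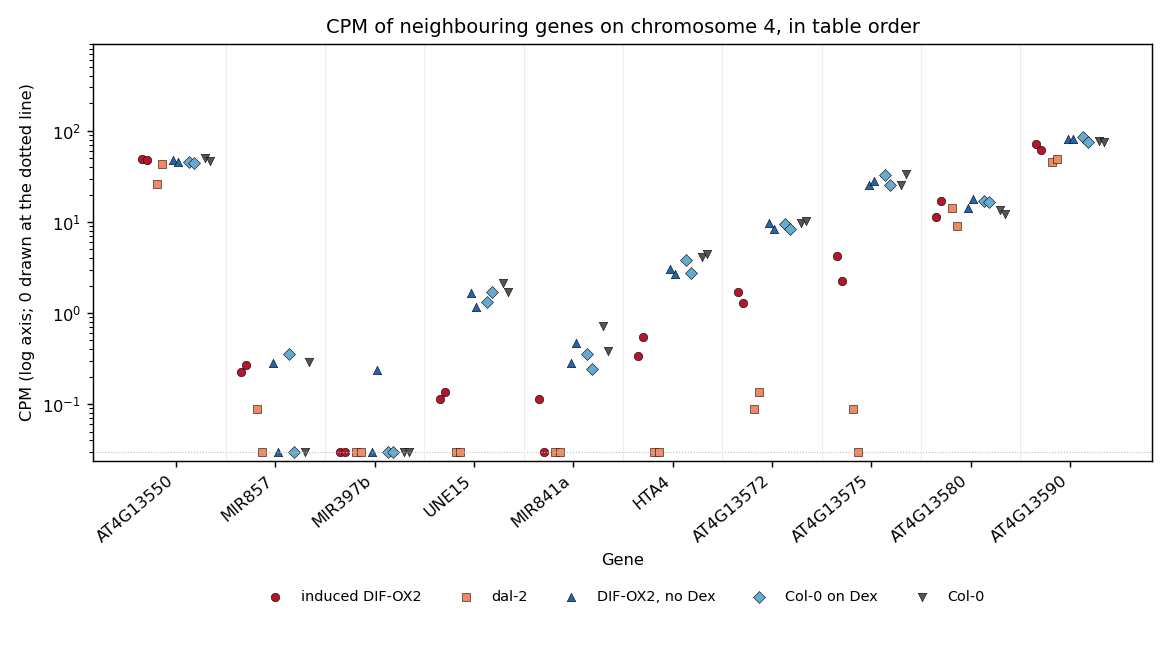
CPM on a log axis of 10 genes of chromosome 4 that follow one another in the count table, 1 point per library and a symbol per group, with 0 drawn at the dotted line. UNE15, MIR841a, HTA4, AT4G13572 and AT4G13575 were lower in induced DIF-OX2 and dal-2 than in the 6 other libraries. On one side AT4G13580 overlapped between them, and on the other AT4G13550 overlapped in induced DIF-OX2 but was lower in dal-2. AT4G13590, the last gene drawn, was also lower in induced DIF-OX2 and dal-2, at 45.6 to 72.6 CPM against 75.8 to 86.1 CPM.

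Relatives of the 13 genes moved in both directions. The gene next to AT2G29300, AT2G29290, encodes a protein of the same type and lies in a tandem cluster of tropinone reductase-like genes. AT2G29290 had 28.4 and 23.0 CPM in induced DIF-OX2 and 8.22 and 27.3 CPM in dal-2, against 90.2 to 134 CPM in the 6 others. Its log2 fold change was −2.41 in induced DIF-OX2 against Col-0 on Dex (SE 0.49; adjusted p = 0.0115, edgeR) and −3.08 in dal-2 against Col-0 (SE 0.51; adjusted p = 0.00308, edgeR), a fall in each. The call in induced DIF-OX2 was lost when replicate 2 of either group was left out, with adjusted p up to 0.112 by edgeR, and the call in dal-2 when only the 4 libraries of its contrast were fitted (adjusted p = 0.0517, edgeR).

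The next gene of the cluster, AT2G29310, had 14.3 and 12.1 CPM in induced DIF-OX2 but 39.9 and 35.0 CPM in dal-2, against 35.4 to 42.0 CPM in the 6 others. It fell in induced DIF-OX2 against Col-0 on Dex, its log2 fold change being −1.83 (SE 0.15; adjusted p = 2.70e-04, edgeR). In dal-2 against Col-0 its log2 fold change was −0.47 (SE 0.14; adjusted p = 0.0347, edgeR), a call that ended with upper quartile scaling, with a filter of 5 CPM, with DESeq2, with only the libraries of the contrast and without any of 7 single libraries. SAG13 (AT2G29350), a dehydrogenase gene used as a marker of leaf senescence, lies a few genes on and moved the other way. It had 49.3 and 49.6 CPM in induced DIF-OX2 and 19.9 and 42.6 CPM in dal-2, against 0 to 0.235 CPM in the 6 others (adjusted p = 3.93e-04 on Dex and 4.20e-04 in dal-2, edgeR). One cluster thus held 1 of the 13 genes and a gene whose dal-2 libraries overlapped with the high groups. It also held a gene that was nearly undetected outside the low groups.

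AT1G14250 is the last of 3 tandem GDA1/CD39 genes on chromosome 1. AT1G14240, the gene before it, had 7.72 and 11.2 CPM in induced DIF-OX2 and 7.95 and 14.7 CPM in dal-2, against 2.90 to 4.40 CPM in the 6 others. AT1G14230, the first of the row, had 37.6 and 51.8 CPM in induced DIF-OX2 and 50.3 and 44.2 CPM in dal-2, against 20.5 to 25.6 CPM in the 6 others. Each of these neighbours was higher in every library of the low groups of AT1G14250 than in every other library. AT1G14230 rose in induced DIF-OX2 against Col-0 on Dex (log2 fold change 0.68, SE 0.16; adjusted p = 0.0197, edgeR) and in dal-2 against Col-0 (0.56, SE 0.16; adjusted p = 0.0298, edgeR). The calls ended when some single libraries were left out, with adjusted p up to 0.153 and 0.130, and that in dal-2 also with only the libraries of its contrast (adjusted p = 0.0984). AT1G14240 rose in induced DIF-OX2 (1.19, SE 0.35; adjusted p = 0.0416, edgeR), a call that ended without any 1 of the 8 libraries other than dal-2, and did not pass in dal-2 (1.01, SE 0.35; adjusted p = 0.0538, edgeR).

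Of 58 other genes annotated as thionins, 4 had enough counts to be tested, and 1 rose and 1 fell in each of these contrasts. THI2.2 (AT5G36910) had 23.5 and 14.8 CPM in induced DIF-OX2 and 31.3 and 25.4 CPM in dal-2, against 64.9 to 147 CPM in the 6 others. THI2.2 fell in both, at log2 fold changes of −2.25 in induced DIF-OX2 (SE 0.26; adjusted p = 0.00115, edgeR) and −2.62 in dal-2 (SE 0.25; adjusted p = 3.58e-04, edgeR). The thionin-like AT1G25275 had 131 and 180 CPM in induced DIF-OX2 and 179 and 112 CPM in dal-2, against 22.6 to 41.3 CPM in the 6 others. It rose by 1.78 in induced DIF-OX2 (SE 0.30; adjusted p = 0.00511, edgeR) and by 1.93 in dal-2 (SE 0.30; adjusted p = 0.00253, edgeR). With Col-0 on Dex replicate 1 left out, the rise in induced DIF-OX2 was not called (adjusted p = 0.0547).

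**Figure D5:**
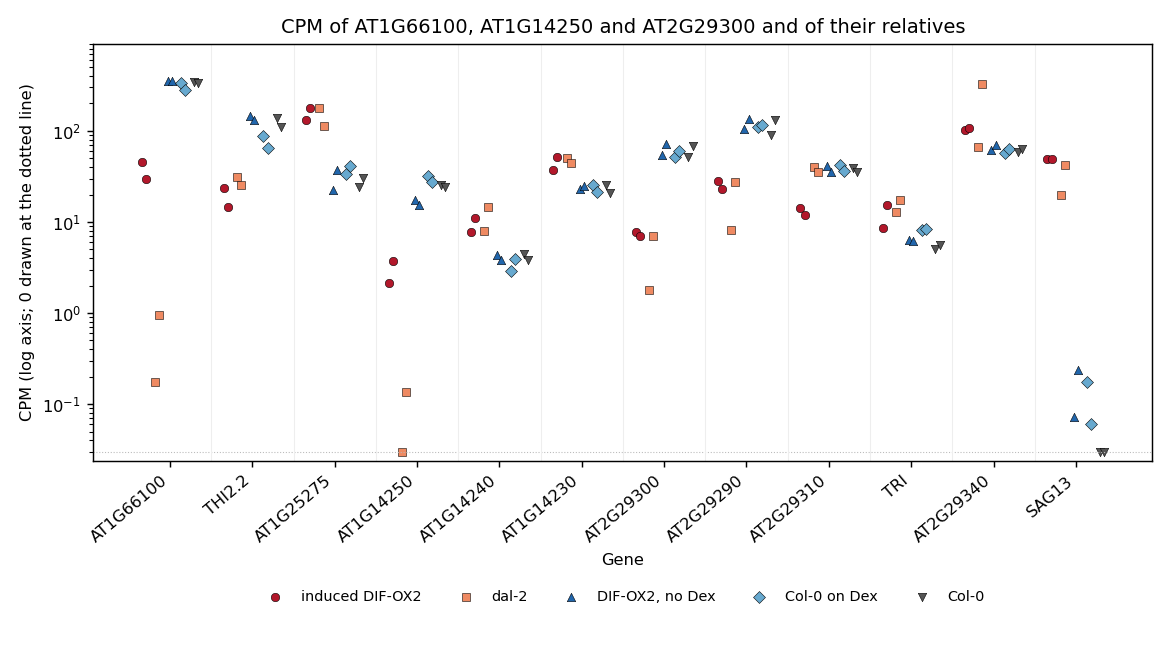
CPM on a log axis of AT1G66100, AT1G14250 and AT2G29300 beside thionin-type, GDA1/CD39 and short-chain dehydrogenase genes of the same family or cluster, 1 point per library and a symbol per group. AT1G25275, AT1G14230, AT1G14240 and SAG13 were higher in induced DIF-OX2 and dal-2 than in the 6 other libraries, the opposite of AT1G66100, AT1G14250 and AT2G29300.

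In the larger families of the remaining genes both directions occurred. The counts are to be read against all tested genes, of which 10.4% fell and 11.6% rose in induced DIF-OX2, and 18.0% fell and 15.9% rose in dal-2. Of 52 other GDSL-like lipase genes, 8 fell and 11 rose in induced DIF-OX2 against Col-0 on Dex, and 17 fell and 11 rose in dal-2 against Col-0. Of 29 other NPH3 genes, 7 fell and 2 rose in induced DIF-OX2, and 7 fell and 4 rose in dal-2. Of 43 other HXXXD-type acyltransferase genes, 9 fell and 5 rose in induced DIF-OX2, and 8 fell and 4 rose in dal-2. Of 33 other TRAF-like genes, 7 fell and 2 rose in induced DIF-OX2, and 5 fell and 10 rose in dal-2. Of 87 other genes named as myb domain proteins, 8 fell and 13 rose in induced DIF-OX2, and 14 fell and 7 rose in dal-2. Of 102 other leucine-rich repeat kinase genes, 13 fell and 12 rose in induced DIF-OX2, and 21 fell and 13 rose in dal-2. Of 109 other Rossmann-fold genes, 21 fell and 14 rose in induced DIF-OX2, and 26 fell and 16 rose in dal-2. The share of a family that fell was 9.20% to 24.1% in induced DIF-OX2 and 15.2% to 32.7% in dal-2. With 1 library left out at a time, the falls moved by more than 1.5 times in all 7 families in either contrast, from 1 for GDSL-like lipases in induced DIF-OX2 at the lowest to 36 for Rossmann-fold genes in dal-2 at the highest. Medians of these families lay between −0.53 and 0.16 on the log2 scale in both contrasts, against 0.01 and 0.03 for all tested genes.

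Genes of greening and of the antenna, the usual readouts of plastid signals, stood low in the same libraries as the 13 genes. Of 24 greening regulators and plastid-signal reporters, 7 fell and 0 rose in induced DIF-OX2 against Col-0 on Dex (median log2 fold change −1.03), and 20 fell and 0 rose in dal-2 against Col-0 (median −2.55). Of 21 genes of the light-harvesting antenna, 12 fell and 0 rose in induced DIF-OX2 (median −1.56), and all 21 fell in dal-2 (median −4.21). With 1 library left out at a time, the falls on Dex were 1 to 20 for the greening list and 0 to 20 for the antenna list, lowest without replicate 2 of induced DIF-OX2 and highest without replicate 1 of dal-2. Fitted with only the 4 libraries of each contrast, the falls on Dex were 20 in either list, and those in dal-2 were 10 and 14.

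BBX16 (AT1G73870), a B-box transcription factor, had 26.9 and 13.002 CPM in induced DIF-OX2 and 0 and 1.21 CPM in dal-2, against 41.6 to 85.7 CPM in the 6 others, and fell in dal-2 against Col-0, where its log2 fold change was −7.13 (SE 0.74; adjusted p = 4.55e-04, edgeR). The antenna gene LHCB2.3 (AT3G27690) had 468 and 267 CPM in induced DIF-OX2 and 1.41 and 7.79 CPM in dal-2, against 1361 to 1776 CPM in the 6 others. Its log2 fold change was −2.47 in induced DIF-OX2 (SE 0.59; adjusted p = 0.0206, edgeR) and −8.75 in dal-2 (SE 0.80; adjusted p = 2.88e-04, edgeR). The call on Dex ended without any 1 of the 4 libraries of that contrast, with adjusted p up to 0.170. PORA (AT5G54190), for the light-dependent step of chlorophyll synthesis, had 0.909 and 0.339 CPM in induced DIF-OX2 and 0 in both dal-2 libraries, against 1.23 to 3.20 CPM in the 6 others.

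Glutaredoxins, small proteins of thiol redox control, held a gene that met the ratio and missed the minimum. AT3G21460 had 0 and 0.406 CPM in induced DIF-OX2 and 0 CPM in both dal-2 libraries, against 3.15 to 6.24 CPM in the 6 others. Since it stands out by the same values as the 13 genes, no test is given for it. Of 21 glutaredoxin genes, 4 fell and 1 rose in induced DIF-OX2, and 6 fell and 2 rose in dal-2, AT3G21460 being among those that fell in each. The falls were 1 to 6 in induced DIF-OX2 and 5 to 7 in dal-2 when single libraries were dropped, the 1 being seen when replicate 2 of either group of the induction contrast was missing. Over all tested genes 10.4% fell in induced DIF-OX2 and 18.0% in dal-2. AT2G47880, a further member that fell in both contrasts, had 1.59 and 0.406 CPM in induced DIF-OX2 and 0.265 and 0 CPM in dal-2, against 4.00 to 6.75 CPM in the 6 others. That fall in induced DIF-OX2 was not called when replicate 2 of the group or any Col-0 library on Dex was dropped (adjusted p up to 0.138, edgeR).

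Lists of nitrate response, cytokinin response, clock and glucosinolate genes did not move alike. Over all tested genes 10.4% fell and 11.6% rose in induced DIF-OX2, and 18.0% fell and 15.9% rose in dal-2. Of 17 nitrate-response genes, 1 fell and 2 rose in induced DIF-OX2, and 5 fell and 1 rose in dal-2. With 1 library left out, 1 to 7 fell in induced DIF-OX2 and 1 to 6 in dal-2, where the median log2 fold change of −0.29 turned to 0.11 without dal-2 replicate 2. BT1 (AT5G63160), a BTB-domain gene of nitrate response, fell in induced DIF-OX2, with 16.5 and 25.4 CPM, against 68.7 and 57.1 CPM in Col-0 on Dex (log2 fold change −1.84, SE 0.33; adjusted p = 0.00624, edgeR). Of 9 type-A response regulators of cytokinin, 2 (22.2%) fell and 0 rose in each contrast. When single libraries were dropped, 0 to 4 fell in induced DIF-OX2 and 1 to 4 in dal-2, where the median of −0.23 turned to 0.13 without dal-2 replicate 1. ARR15 (AT1G74890) was among them in both, with 2.84 and 2.71 CPM in induced DIF-OX2 and 0.884 and 1.95 CPM in dal-2, against 5.86 to 15.7 CPM in the 6 others. Its call in induced DIF-OX2 was lost when replicate 2 of that group or Col-0 on Dex replicate 1 was dropped (edgeR, adjusted p up to 0.100). Of 13 clock genes, 1 rose and 0 fell in induced DIF-OX2, and 7 rose and 0 fell in dal-2. These clock counts rest on both dal-2 replicates, since 4 rose and 4 fell without replicate 1 and 7 rose and 6 fell without replicate 2. Without a replicate of Col-0 1 rose and 0 fell, and a filter of 5 CPM turned the median log2 fold change in dal-2 to −0.58, against 1.31. In induced DIF-OX2 0 to 4 rose and 0 to 3 fell with 1 library left out. Of 10 genes of aliphatic glucosinolate synthesis, 1 rose and 0 fell in induced DIF-OX2, and 5 fell and 0 rose in dal-2. The falls of glucosinolate genes in dal-2 were 0 to 8 with 1 library left out.

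Markers of some cell types moved with the 13 genes. The summed level of 4 trichome markers was 4.77 to 9.68 CPM in induced DIF-OX2 and dal-2, against 25.02 to 30.6 CPM in the 6 other libraries. Each of the 4, GL1, GL2, MYB23 and TRY, was lower in all of the low libraries. GL1 and TRY were scarce even in the 6 others, at 1.33 to 4.11 CPM and 1.21 to 3.28 CPM. The share of all genes that were lower in all of the low libraries was not computed. The summed level of 3 mesophyll markers was 10970 and 14761 CPM in induced DIF-OX2 and 1171 and 3428 CPM in dal-2, against 23484 to 27605 CPM in the 6 others. These mesophyll markers are themselves genes of photosynthesis, RBCS1A, LHCB1.1 and LHCB3. Of the 2 senescence markers SAG13 was high in the low groups and SAG12 was at 0 in all libraries. Other summed markers stood apart from the 6 other libraries in one of the low groups only. Root hair markers summed to 23.2 and 36.8 CPM in induced DIF-OX2 and 17.2 and 9.60 CPM in dal-2, against 13.8 to 15.9 CPM in the 6 others, and guard cell markers to 23.7 and 15.7 CPM in induced DIF-OX2 and 34.1 and 24.2 CPM in dal-2, against 29.4 to 40.1 CPM. By sum, both classes were thus separate in induced DIF-OX2. Of the guard cell markers, KAT1 alone was lower in all of the low libraries. It had 5.34 and 3.93 CPM in induced DIF-OX2 and 8.92 and 6.11 CPM in dal-2, against 12.5 to 16.8 CPM in the 6 others. MYB60 and FAMA overlapped with the 6 others. Shoot meristem markers summed to 5.91 and 4.61 CPM in induced DIF-OX2 and 18.4 and 21.3 CPM in dal-2, against 3.54 to 7.85 CPM, and phloem markers to 145 and 151 CPM in induced DIF-OX2 and 90.7 and 88.8 CPM in dal-2, against 120 to 153 CPM. Root endodermis markers summed to 45.7 and 67.6 CPM in induced DIF-OX2 and 44.0 and 31.2 CPM in dal-2, against 50.6 to 63.8 CPM. By sum, these last 3 classes were separate in dal-2, meristem being higher and the others lower. Single genes differed. SUC2 carried the phloem fall, with 76.8 and 74.9 CPM in dal-2 against 108 to 138 CPM in the 6 others. APL overlapped in dal-2, at 14.0 and 13.9 CPM against 9.10 to 15.1 CPM, and was higher in induced DIF-OX2 (20.1 and 18.1 CPM). CASP4, CASP5 and CLV3 were not separate in dal-2 either. The 2 flower markers summed to under 1 CPM in every library. The part of these markers in the levels of the 13 genes was not tested.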

How the data were processed

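RNA from whole seedlings was made into TruSeq libraries and sequenced on an Illumina instrument, per the labels' protocols. The authors deposited a table of raw read counts per gene, made with Trimmomatic, TopHat2 and HTSeq on TAIR10 per the submitters' processing notes, with no versions. The strand setting and the handling of reads with several alignments are not given in the sources used here. The 10 count columns were matched to samples by title.

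Levels are counts over column sums, as CPM. For tests, edgeR 4.0.16 in R 4.3.3 kept genes by filterByExpr (20681 tested, 12921 removed), scaled libraries by TMM and fitted all 10 libraries with 1 coefficient per group. All groups share a gene's spread, so adjusted p-values can be too small for dal-2 and too large elsewhere. Quasi-likelihood p-values were adjusted by Benjamini-Hochberg across the tested genes. The script was tested on simulated data. The members, lists, named genes and motifs were chosen with earlier results of these data known. The values named follow from the rule's ratio, the level, the calls and up to 2 genes per direction of a list. Positions, names and sequences are from RefSeq's TAIR10.1. Alternatives were other scalings, filters, DESeq2 1.42.0, each contrast's own libraries, a replicate block and each library left out in turn. A fit without dal-2 was tried too. Contrasts of induced DIF-OX2 and dal-2 against Col-0, used for lists only, and a crossed pairing were added after the data were seen.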

Additional observations from a re-analysis of the deposited data

How the results depend on the processing

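All 13 genes met the rule in 14 of 16 other settings. With 1 library left out, a 2-fold gap or a minimum of 1 CPM this had to be so, since these changes only loosen the rule. All 13 also met it with DESeq2 size factors and with TMM scaling, which widens the gap. The stricter settings kept 8 genes at a minimum of 10 CPM and 1 (AT5G35777) at an 8-fold gap. The number of genes that met the rule was 21 with TMM scaling, 21 with DESeq2 size factors, 21 at a minimum of 1 CPM and 106 at a 2-fold gap. With 1 library left out the number was 13 to 27, the highest without replicate 1 of induced DIF-OX2.

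In dal-2 against induced DIF-OX2, 4455 genes were called; it was 793 with only that contrast's libraries, where 5 of the 13 genes were called lower, and 1901 to 6187 with 1 library left out (7 to 11 of the 13). None of the 8 called genes changed direction in 18 alternatives, and 5 stayed called in all of them. In DIF-OX2 without Dex against Col-0 the 2 calls became 6 with DESeq2, 1 with a replicate block, 0 with only its own libraries and 0 to 2 with 1 library left out. In Dex against no Dex in Col-0 no setting called any of the 13 genes. In induced DIF-OX2 against Col-0 on Dex, 4549 calls became 6892 with only its own libraries, 7065 without both dal-2 libraries and 1343 to 7102 with 1 library left out. In dal-2 against Col-0, 7011 calls became 2258 with only its own libraries and 3891 to 8352 with 1 library left out. Upper quartile scaling moved the median of all genes in that contrast to 0.16, against 0.03. The cause of these moves was not tested, beyond the fewer libraries in those fits. Leaving out a library leaves its group with 1, which then takes the spread of the other groups; for dal-2 that spread is too small.

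The numbers 1 and 2 are shared by all groups, but with 2 pairs they are not taken as pairing. Deviations of same-numbered libraries correlated across genes at 0.28 for Dex in Col-0, 0.46 for DIF-OX2 against Col-0 and −0.10 for dal-2 against induced DIF-OX2. With the replicate block, 9 of the 13 genes were lower in dal-2 than in induced DIF-OX2 and 4799 genes were called, and with crossed numbers 9 and 4539.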
